A study of Homo sapiens with 12 samples.

Results

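The human mitochondrial genome encodes a small, fixed set of genes, and all 37 of them were measured in the deposited expression table. They were taken as every row whose gene symbol starts with MT-, which gave 37 of 58219 genes: 13 protein-coding genes, 2 ribosomal RNA (rRNA) genes and 22 transfer RNA (tRNA) genes, by the gene type in the table. Poly(A)-selected RNA was sequenced from H9, an established human embryonic stem cell line, at day 0 and after 4 and 8 days of neural differentiation. Wild-type cells gave 2 libraries at each day, labelled WT1 and WT2, and cells of the SOX21-/- genotype gave 2 libraries at each day, labelled S13 and S23, so 12 libraries fell into 6 groups of 2. The study asked how loss of SOX21, a transcription factor of neural progenitors, changes expression during this differentiation. Whether WT1 and WT2, or S13 and S23, are separate clones or cultures was not stated in the sources used here, and the spread that p-values measure may thus be technical.

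Mitochondrial DNA is read from both strands into long transcripts in which tRNAs lie between the mRNAs and rRNAs. RNase P and ELAC2 cut the tRNAs out and so free the other RNAs. Most mitochondrial mRNAs then receive a poly(A) tail, mature tRNAs receive a CCA end instead, and the MT-ATP8 and MT-ATP6 frames, like those of MT-ND4L and MT-ND4, stay together on 1 mRNA. The 13 proteins are subunits of complexes I, III, IV and V of oxidative phosphorylation, whose other subunits are encoded in the nucleus, and the rRNAs and tRNAs serve the mitochondrial ribosome that makes them.

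Values were in TPM, a level per unit of gene length scaled to a fixed sum per library. They hold no read numbers, and the depth behind each value is unknown. SOX21 was at 156, 166, 162 and 143 TPM at day 4 in WT1, WT2, S13 and S23, and at 129, 100.04, 253 and 69.9 TPM at day 8, so its mRNA did not separate the genotype labels. Libraries are therefore named below by their labels, and each direction drawn between genotypes rests on those labels. Of the pluripotency markers, POU5F1 ran from 1507 to 1744 TPM at day 0 and was at most 32.4 TPM later. NANOG, TDGF1 and L1TD1 were also lower in each later library than in any of day 0. DPPA4 ran from 307 to 381 TPM at day 0 and kept a level of 97.5 to 141 TPM later. PAX6, a neural progenitor gene, was at most 0.325 TPM at day 0 and ran from 93.3 to 204 TPM later, while mesoderm and endoderm markers were below 1 TPM in every library and SOX17 was listed at 0 in all 12. In bulk RNA, a change in the number of cells of a type and a change in RNA per cell cannot be told apart. At day 8 the summed level of 5 neuron markers was 261 and 276 TPM in the wild-type libraries against 180 and 134 TPM for S13 and S23, with STMN2, DCX and TUBB3 lower, ELAVL4 higher and INA overlapping. The summed progenitor markers were at 628 and 648 TPM against 813 and 818 TPM, with PAX6, SOX1 and FABP7 higher and LHX2 and HES5 lower. At day 4 the neuron markers summed to 200 and 214 TPM against 106 and 141 TPM, and LHX2 was at 60.2 and 78.9 TPM against 18.2 and 20.5 TPM. The part of cell makeup in the values below was not tested.

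The tRNAs around which the class results turn are shown as the RNA strand, 5′ to 3′ in DNA letters, from GENCODE v29 transcripts on GRCh38, with the anticodon in capitals. The first group is the run of neighbouring tRNA genes for alanine, asparagine, cysteine and tyrosine, which lie on the minus strand between MT-ND2 and MT-CO1, at positions 5587-5655, 5657-5729, 5761-5826 and 5826-5891 of the mitochondrial chromosome. They are shown because they held most of the tRNA level at day 0.
MT-TA: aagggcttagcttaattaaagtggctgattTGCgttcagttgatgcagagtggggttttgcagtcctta
MT-TN: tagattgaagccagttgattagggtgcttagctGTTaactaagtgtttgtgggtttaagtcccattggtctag
MT-TC: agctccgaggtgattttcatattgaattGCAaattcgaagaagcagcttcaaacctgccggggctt
MT-TY: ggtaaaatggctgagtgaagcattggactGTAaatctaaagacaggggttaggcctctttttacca
MT-TS1 (serine, 7446-7514, minus strand) lies just after MT-CO1, and MT-TP (proline, 15956-16023, minus strand) is the last gene before the control region. MT-TP is shown because it held most of the small tRNA level of days 4 and 8.
MT-TS1: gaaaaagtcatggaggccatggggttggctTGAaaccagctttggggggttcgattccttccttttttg
MT-TP: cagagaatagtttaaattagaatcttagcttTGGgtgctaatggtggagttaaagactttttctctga
On the plus strand, MT-TW (tryptophan, 5512-5579) lies beside MT-TA, MT-TD (aspartate, 7518-7585) beside MT-TS1, and MT-TK (lysine, 8295-8364) between MT-CO2 and MT-ATP8. They are shown as genes of nearly the same length that were far lower at day 0.
MT-TW: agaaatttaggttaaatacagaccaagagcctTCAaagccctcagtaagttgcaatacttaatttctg
MT-TD: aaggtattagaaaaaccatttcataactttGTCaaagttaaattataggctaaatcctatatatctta
MT-TK: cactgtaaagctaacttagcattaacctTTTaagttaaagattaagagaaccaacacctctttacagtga

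The mitochondrially encoded genes held a mean of 22.996% of all TPM at day 0 (SD 0.897, n = 4 libraries) and 7.76% later (SD 0.427, n = 8). Their summed share of all TPM was 23.5, 23.4, 23.4 and 21.7% at day 0 in WT1, WT2, S13 and S23. It was 7.21, 7.36, 8.41 and 7.75% at day 4 and 7.80, 8.24, 7.41 and 7.95% at day 8. Each library of day 0 was above each later library, and the ranges of days 4 and 8 overlapped. The classes differed in how they made up this sum. Protein-coding genes held 70.8, 68.3, 62.7 and 60.1% of the mitochondrial TPM at day 0, 94.2 to 94.5% at day 4 and 91.9 to 93.5% at day 8. The tRNA genes held 28.0, 30.3, 35.9 and 38.3% at day 0 and between 0.723 and 0.897% in the 8 later libraries. The rRNA genes held 1.19, 1.34, 1.43 and 1.63% at day 0, 4.60 to 5.09% at day 4 and 5.61 to 7.30% at day 8. On the TPM scale none of the 3 classes overlapped between day 0 and the later days, and the protein-coding and rRNA shares did not overlap between days 4 and 8 either. With TPM multiplied by gene length, the protein-coding shares of days 0 and 8 did overlap, as the closing section gives. These shares are descriptions without a test.

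**Figure D1:**
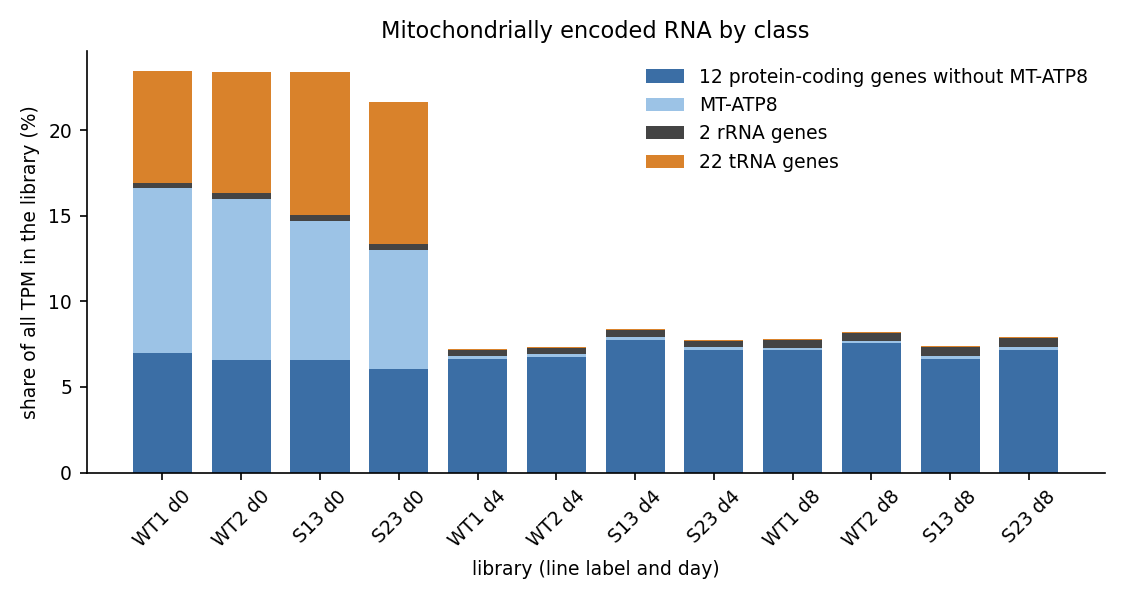
Stacked bars give the share of all TPM in each of the 12 libraries (in %) held by 12 protein-coding genes, MT-ATP8, the 2 rRNA genes and the 22 tRNA genes. The bars of day 0 reach 21.7 to 23.5% and those of days 4 and 8 reach 7.21 to 8.41%, and the parts that differ are MT-ATP8 and the tRNAs, while the part of the other 12 protein-coding genes is 6.06 to 7.76% throughout.

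In summed TPM, 1 gene carried the difference of the protein-coding class between day 0 and the later days. This does not hold for the share of the mitochondrial TPM, which was lower at day 0. Without that gene, MT-ATP8, the mean share was lower still at day 0, at 45.4% against 94.3% at day 4. MT-ATP8 (MT, 8366-8572, plus strand), a short subunit of the membrane part of ATP synthase, was at 96578, 94202, 81230 and 69567 TPM at day 0 in WT1, WT2, S13 and S23. It was at 1882, 1719, 1608 and 1399 TPM at day 4 and at 1220, 1574, 1499 and 1995 TPM at day 8. At day 0 it made up 32.1 to 41.1% of the mitochondrial TPM and 53.4 to 58.8% of that of the protein-coding class, against 1.67 to 2.76% of the class later. The sum of the other 12 protein-coding genes did not separate the days. It was 69749, 65874, 65665 and 60589 TPM at day 0, 66275, 67779, 77609 and 71794 TPM at day 4, and 71693, 75464, 66553 and 71436 TPM at day 8. The end of MT-ATP8 is also the start of MT-ATP6 (8527-9207), a further ATP synthase subunit, and 46 bases belong to both genes (8527-8572, plus strand). They are shown because reads from this stretch cannot be assigned to either gene by sequence, with the start codon of MT-ATP6 in capitals.
MT-ATP8 and MT-ATP6 overlap: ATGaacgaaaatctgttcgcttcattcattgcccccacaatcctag
The genes are read from a shared mRNA, yet the TPM of MT-ATP8 was 10.1 to 11.5 times that of MT-ATP6 at day 0 and 0.321 to 0.559 times later. MT-ATP6 itself was at 6875 to 9488 TPM at day 0, 3887 to 4362 TPM at day 4 and 3305 to 4147 TPM at day 8. At 207 bases MT-ATP8 is the shortest protein-coding member, the others running from 297 bases (MT-ND4L) to 1812 bases (MT-ND5).

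Within the sum of the 12 other protein-coding genes, taken apart from the rRNA and tRNA classes, the makeup differed between day 0 and the later days. Reads can still be shared with rows outside this sum that were high at day 0. These are MT-ATP8 for MT-ATP6, and nuclear rows given further below for MT-CO1 and MT-CO2. The part of such sharing in the shares was not tested. The catalytic core subunits of complex IV, cytochrome c oxidase, held 35.5, 34.5, 34.8 and 34.9% of this sum at day 0, 49.2 to 53.4% at day 4 and 50.3 to 53.1% at day 8. MT-CO1, its heme-bearing subunit, held 8.59, 9.14, 9.39 and 10.3% at day 0, then 18.5 to 20.7% and 19.1 to 21.9%. MT-CO2, which carries the copper site that takes electrons from cytochrome c, held 12.5 to 13.6% at day 0 and 14.6 to 15.98% later. MT-CO3, the remaining core subunit, held 12.1 to 13.3% at day 0 and 14.4 to 16.9% later. All 3 of these shares were higher in each later library than in any library of day 0. Complex V, here MT-ATP6 alone, went the other way, at 11.3 to 13.6% at day 0 against 5.46 to 6.44% and 4.97 to 5.50%. Complex I, the NADH dehydrogenase, held 47.4 to 50.8% at day 0 and 37.8 to 41.4% later, but its 7 subunits did not share a direction. MT-ND4L held 21.0 to 22.4% at day 0 against 12.3 to 16.8% later, and MT-ND4, from the same mRNA, 5.30 to 5.97% and 3.11 to 3.47%. MT-ND5, the longest member and part of the proton-pumping arm, held 1.89 to 2.09% at day 0 and 2.56 to 3.18% later. MT-ND6, the only mRNA of the minus strand, held 2.97 to 3.49% at day 0 and 2.80 to 3.62% later, so its ranges overlapped. MT-CYB, the cytochrome b of complex III, held 2.88 to 3.51% at day 0, 3.02 to 3.73% at day 4 and 2.19 to 2.81% at day 8, and was lower at day 8 than in all earlier libraries.

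**Figure D2:**
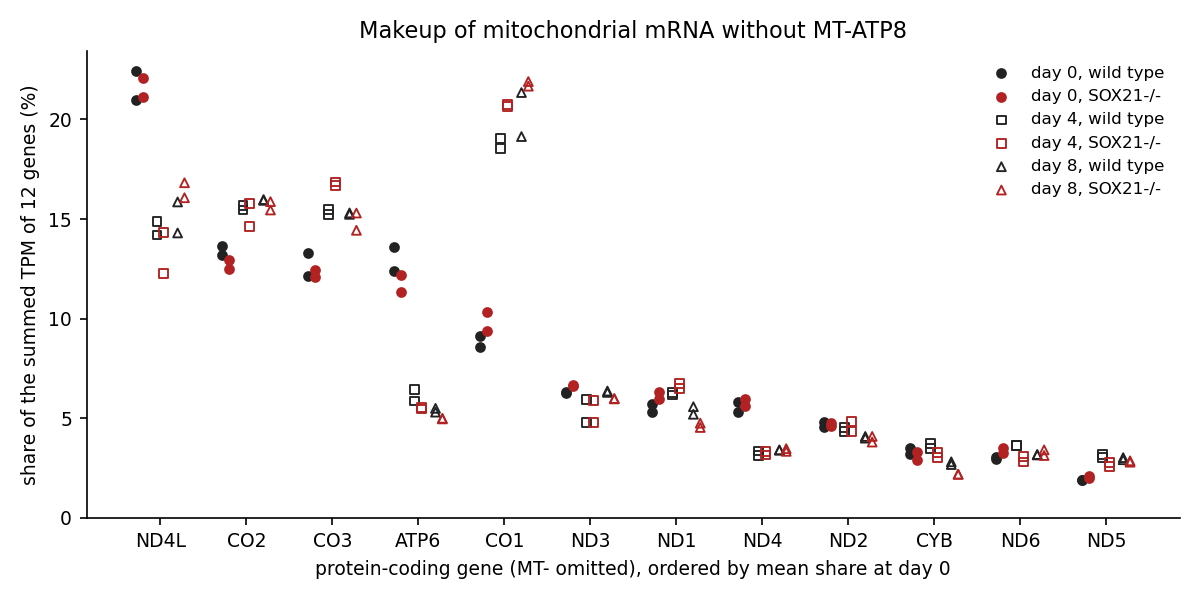
Each point is 1 library, and the vertical axis gives the share (in %) of the summed TPM of 12 protein-coding genes, for wild type (black) and the SOX21-/- label (red) at day 0 (filled circles), day 4 (squares) and day 8 (triangles). The share of MT-CO1 is 8.59 to 10.3% at day 0 and 18.5 to 21.9% later, and those of MT-ND4L, MT-ATP6 and MT-ND4 are lower later. Within a day some shares lie apart by genotype label, without a test. The means of wild type and the SOX21-/- label are 18.8 and 20.7% for MT-CO1 at day 4. They are 2.74 and 2.19% for MT-CYB at day 8.

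On the log2(TPM + 1) scale, a fit with limma across all 24248 genes that reached 1 TPM in at least 2 libraries called 9 of 13 protein-coding members between days 0 and 4 in wild type and 10 of 13 in the libraries labelled SOX21-/-, at a Benjamini-Hochberg adjusted p of 0.05. Of all genes tested, 65.7% were called in wild type (54.3% higher and 11.4% lower at day 4) and 60.6% in the libraries labelled SOX21-/- (48.1% and 12.5%). The median change of all genes tested was itself 0.91 in wild type and 0.72 in the libraries labelled SOX21-/-, so most genes were higher at day 4 on this scale. With median-of-ratios scaling these medians were 0.04 and 0.01, and 5583 of 12143 and 5407 of 11771 called genes were higher, against 13177 of 15931 and 11664 of 14688. With TPM scaled to nuclear protein-coding genes, 10201 of 14154 and 8627 of 12957 were higher. In wild type, MT-ATP8 fell by 5.73 on the log2 scale (SE 0.16, limma adjusted p = 4.63e-08), MT-ATP6 by 1.10, MT-ND4 by 0.80 and MT-ND4L by 0.59. MT-CO1 rose by 1.07 (SE 0.058, limma adjusted p = 1.06e-06), MT-ND5 by 0.69, MT-CO3 by 0.26, MT-ND6 by 0.25 and MT-CO2 by 0.20. Apart from MT-CO1, these rises were below the median of all genes. In the libraries labelled SOX21-/-, MT-ATP8 fell by 5.65, MT-ATP6 by 0.85, MT-ND4 by 0.59 and MT-ND4L by 0.46. There MT-CO1 rose by 1.31, MT-CO3 by 0.69, MT-ND5 by 0.63, MT-CO2 by 0.50, MT-ND1 by 0.35 and MT-ND2 by 0.21. The direction of the rises depends on the scale: with median-of-ratios scaling, all 13 protein-coding members in wild type and 12 in the libraries labelled SOX21-/- were called lower at day 4, and even MT-CO1 in wild type fell, by 0.37 on the log2 scale. With TPM scaled to nuclear protein-coding genes MT-CO1 alone stayed called as higher, while the falls of MT-ATP8, MT-ATP6, MT-ND4 and MT-ND4L kept their direction under both scalings. In wild type, leaving out WT2 at day 0, or either library at day 4, ended the calls of MT-CO2 (limma adjusted p = 0.0674 to 0.215) and MT-CO3 (0.0539 to 0.175). That of MT-ND6 was lost without any 1 of 8 libraries (0.0539 to 0.194), and that of MT-ND2 in the libraries labelled SOX21-/- without any 1 of 9 (0.0595 to 0.234), each of the 8 or 9 being named in the closing section.

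Between days 4 and 8, on the TPM scale, the RNA of the large ribosomal subunit was called higher in both genotypes. In the libraries labelled SOX21-/- 4 mRNAs were called lower. The shares called were near those of all genes. In wild type 2 of the 15 protein-coding and rRNA genes were called (13.3%), against 12.6% of all genes, and in the libraries labelled SOX21-/- 5 of 15 (33.3%), against 26.1%. By direction, 7.62% of all genes were called higher and 4.99% lower in wild type, against 19.0% and 7.15% in the libraries labelled SOX21-/-. The difference in this step between genotypes was called for 0 of 37 members. None of the 22 tRNA genes was called with limma in this step, 11 of them being at 0 in every library of both days. MT-RNR2, that RNA, was at 2838 and 2970 TPM at day 4 and 3912 and 3895 TPM at day 8 in wild type, a rise of 0.43 (SE 0.091, limma adjusted p = 0.0210). In S13 and S23 it was at 3650 and 3109 TPM at day 4 and 4770 and 4727 TPM at day 8, a rise of 0.50 (limma adjusted p = 0.00606). It was thus higher at day 8 in both genotypes without overlap. The other wild-type call was MT-CO1, from 12287 and 12910 TPM to 15307 and 14443 TPM, a rise of 0.24 (limma adjusted p = 0.0329). In the libraries labelled SOX21-/-, 4 protein-coding genes fell. MT-ND1, the quinone-site subunit of complex I, went from 5047 and 4832 TPM to 3018 and 3395 TPM, a fall of 0.63 on the log2 scale (SE 0.074, limma adjusted p = 0.00104). MT-CYB went from 2340 and 2360 TPM to 1454 and 1562 TPM, a fall of 0.64 on the log2 scale (SE 0.12, limma adjusted p = 0.00570). MT-ND2 fell by 0.33 and MT-CO3 by 0.29. The 2 wild-type calls were lost under several settings, among them without either library of day 4 and without WT1 at day 8 (limma adjusted p = 0.0780 to 0.109 for MT-RNR2 and 0.0878 to 0.168 for MT-CO1). With median-of-ratios scaling the call of MT-RNR2 in the libraries labelled SOX21-/- was lost as well (limma adjusted p = 0.172). MT-ND2 and MT-CO3 in the libraries labelled SOX21-/- lost their calls without S13 at day 4, S23 at day 4 or S13 at day 8 (0.0551 to 0.0853 and 0.0584 to 0.155).

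Neither rRNA was called between days 0 and 4 in either genotype on the TPM scale, while with median-of-ratios scaling both were called lower at day 4. On that scale MT-RNR1 fell by 1.36 in wild type and 1.11 in the libraries labelled SOX21-/- (limma adjusted p = 0.000228 and 0.000757), and MT-RNR2 by 1.22 and 1.01. With TPM scaled to nuclear protein-coding genes they fell by 0.56 and 0.51 (MT-RNR1) and by 0.42 and 0.41 (MT-RNR2), all 4 being called, and with a filter at 5 TPM MT-RNR2 was called higher in wild type (adjusted p = 0.0465). MT-RNR1 (648-1601, plus strand), the RNA of the small ribosomal subunit, was at 462, 470, 578 and 486 TPM at day 0, 479, 503, 628 and 523 TPM at day 4, and 509, 722, 639 and 632 TPM at day 8. MT-RNR2 (1671-3229, plus strand) was at 2339, 2666, 2783 and 3043 TPM at day 0. Both are cut from the same long transcript, and the level of MT-RNR2 was 4.82 to 6.26 times that of MT-RNR1 at day 0, 5.81 to 5.94 times at day 4 and 5.39 to 7.68 times at day 8. For each 100 TPM of the 12 mRNAs there were 4.02 to 5.83 TPM of rRNA at day 0, 5.005 to 5.51 at day 4 and 6.12 to 8.13 at day 8. Against the mRNAs, then, rRNA was higher at day 8 than in all earlier libraries, while day 0 and day 4 overlapped. The selection for poly(A) tails bears on every rRNA value here, and its part was not tested.

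The tRNA class was high at day 0 and near 0 later. Its summed level was 65685, 71101, 83971 and 82824 TPM at day 0 and 588 to 713 TPM in the later libraries. At day 0 the 8 tRNA genes of the minus strand held 85.0 to 86.7% of this sum, and the run of MT-TA, MT-TN, MT-TC and MT-TY alone held 64.4, 65.8, 66.5 and 69.8%. MT-TY, for tyrosine, was at 11968, 13664, 15580 and 15445 TPM, and MT-TS1, the next gene of that strand, at 9224, 8441, 9537 and 8820 TPM. The plus-strand genes nearby were far lower. MT-TW was at 23.5, 0, 47.3 and 23.5 TPM, MT-TD at 35.7 to 213 TPM and MT-TK at 81.6 to 152 TPM, so tRNA genes of nearly equal length differed widely within a library. MT-TL1, for leucine, which follows MT-RNR2, was the highest of the plus strand, at 3817, 4793, 5420 and 5613 TPM.

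At days 4 and 8, 11 tRNA genes were listed at 0 in all 8 libraries, each of them on the plus strand, and 12 to 18 of the 22 were at 0 in any 1 library. Only MT-TC, MT-TY and MT-TP were above 0 in all 8. MT-TP held 83.7 to 94.8% of the later tRNA sum, with 555, 557, 548 and 581 TPM at day 4 and 583, 633, 557 and 654 TPM at day 8. It was at 1470, 2652, 2318 and 2620 TPM at day 0, and fell by 1.83 in wild type and by 2.12 in the libraries labelled SOX21-/- on the log2 scale (limma adjusted p = 0.000123 and 5.47e-05). MT-TY, the next in level, was at 8.26 to 36.8 TPM later, and MT-TC at 7.03 to 30.6 TPM. From day 0 to day 4 the log2 change of MT-TY was -9.44 in wild type and -10.08 in the libraries labelled SOX21-/- (limma adjusted p = 3.41e-07 and 2.77e-07), and that of MT-TC was -10.18 and -9.73. Of the 22 tRNA genes, 9 would have passed the filter on low values with the later libraries alone. The other 13 passed only with their day 0 libraries, so the filter itself favoured a difference. Their calls between days 0 and 4 are not counted as a result. An exact 0 can be a failed estimate, and no fold change is given against a day at which all libraries are at 0.

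**Figure D3:**
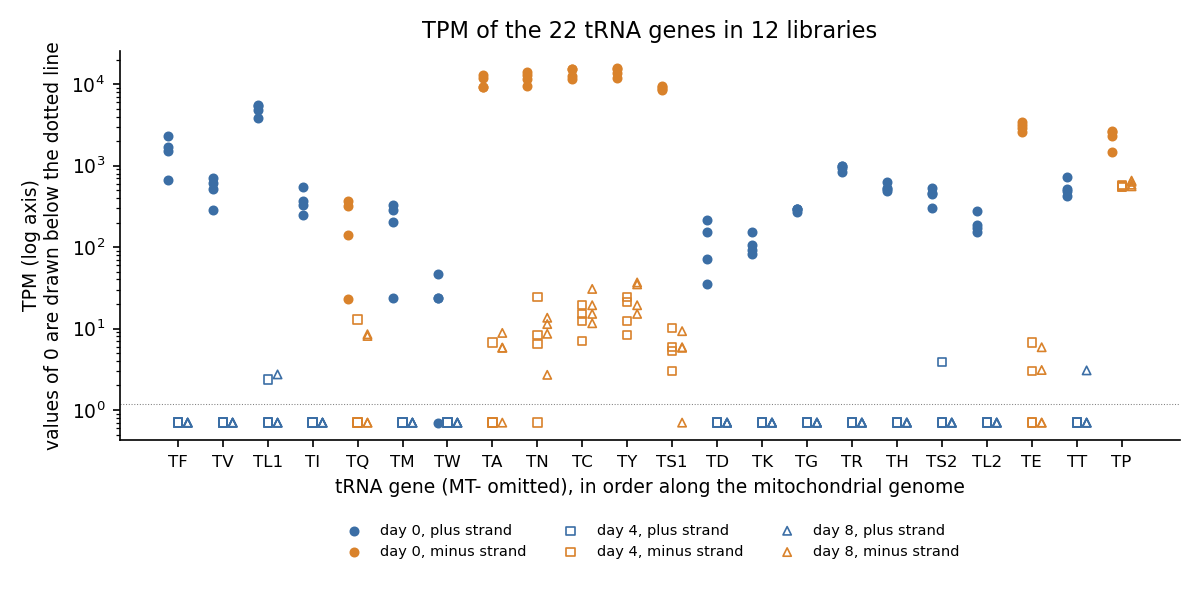
The TPM of each of the 22 tRNA genes is shown on a log axis for all 12 libraries, in genome order, with genes of the minus strand in orange and of the plus strand in blue, day 0 as filled circles, day 4 as squares and day 8 as triangles, and values of 0 below the dotted line. MT-TA, MT-TN, MT-TC, MT-TY and MT-TS1 stand highest at day 0, and MT-TP is the gene that keeps a level of 548 to 654 TPM at days 4 and 8.

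Short genes differed from long ones between day 0 and the later days, inside and outside the mitochondrial genome. The members that were far lower at day 4 were the tRNA genes, of 59 to 75 bases, and MT-ATP8, of 207 bases, while the longest mRNAs, MT-CO1 and MT-ND5, were higher and MT-ND4, of 1378 bases, was lower. Outside the mitochondrial genome, 99.5% of 24211 tested genes had a length. Those under 80 bases, the length of the tRNAs, held a mean of 0.374% of all TPM at day 0 and 0.141% later, and those of 80 to 150 bases 7.88% and 0.417%. Without MIR6723, a microRNA gene with sequence shared with MT-CO1, the latter held 5.05% at day 0. Genes of 150 to 300 bases held 8.15% and 0.718%. Over genes of 4000 bases or more, the median change from day 0 to day 4 in wild type was 1.17 on the log2 scale, against 0 for genes under 300 bases. Processed pseudogenes held 11.1 to 12.4% of all TPM at day 0 and 0.454 to 0.677% later. The labels name reads of 50, 100 or 150 bases without assigning them to libraries, so the part of read length in these values was not tested. With TPM multiplied by gene length, the tRNAs held 5.49 to 7.85% of the mitochondrial sum at day 0 and 0.0544 to 0.0677% later. The annotated length was used here, not the estimated length behind TPM, so these are not shares of fragments.

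**Figure D4:**
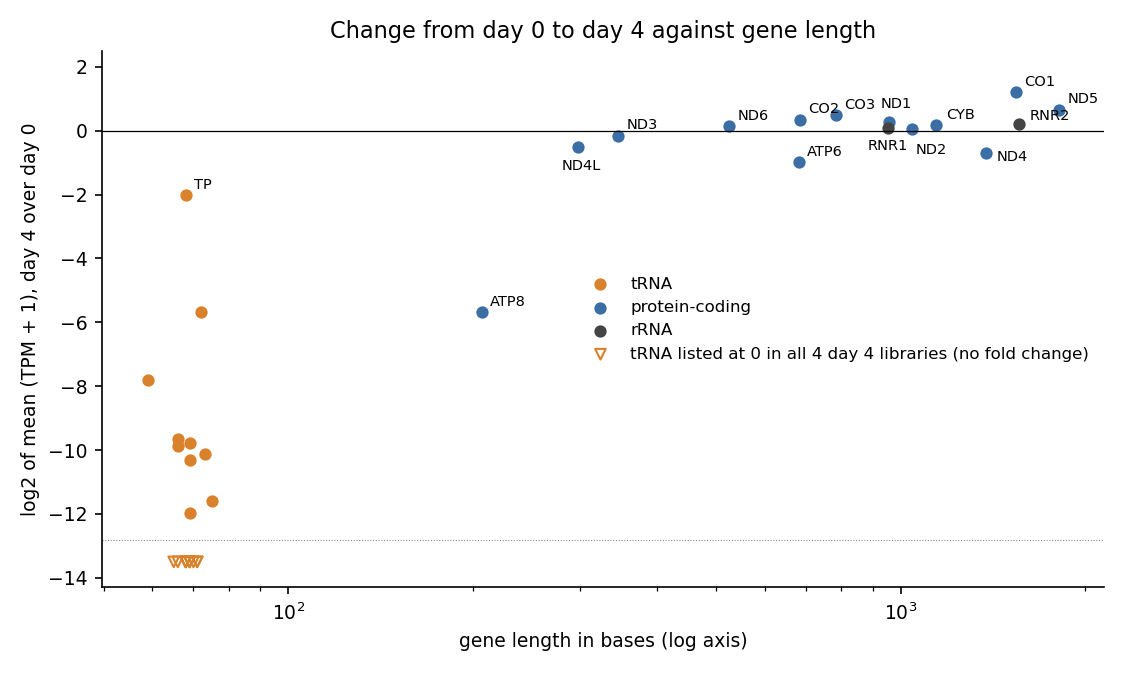
The vertical axis gives the log2 ratio of the mean TPM + 1 over 4 libraries at day 4 to that at day 0, and the horizontal log axis the gene length in bases, for tRNA (orange), protein-coding (blue) and rRNA (grey) genes, with tRNAs listed at 0 in all 4 libraries of day 4 as open triangles without a ratio. The tRNAs and MT-ATP8 lie far below 0, and the mRNAs and rRNAs of 297 bases and more lie near the line, with MT-CO1 and MT-ND5 above it and MT-ATP6 and MT-ND4 below.

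Sequences like those of the mitochondrial genes also lie in the nuclear genome, and reads can be shared with them. The table held 392 named nuclear copies of mitochondrial protein-coding and rRNA genes, of which 26 passed the filter. Their summed level was 8448, 7632, 7039 and 6306 TPM at day 0 and 124 to 161 TPM later, or 2.91 to 3.60% and 0.160 to 0.211% of the mitochondrial TPM. MTCO2P2 was the highest, at 6061, 5550, 4816 and 4400 TPM at day 0, with 1 later library at 2.58 TPM and 7 at 0, and MTATP6P1 was at 836 to 1161 TPM at day 0 and 98.7 to 126 TPM later. A further row, chosen after its values were seen, was MIR6723, a microRNA gene of 89 bases (GRCh38, chromosome 1, 632325-632413, minus strand). It was at 28625, 27712, 27750 and 29460 TPM at day 0 and at 0 in all 8 later libraries. A stretch of 78 of its bases is identical to the opposite strand of MT-CO1. The part of MIR6723 and MTCO2P2 in the lower shares of MT-CO1 and MT-CO2 at day 0 was not tested. Because no source used here states whether strand was used in the quantification, overlapping and antisense genes stay uncertain.

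Between the genotype labels, limma called 0 of 37 members at day 0, at day 4 and at day 8. Unadjusted p-values were below 0.05 for 5, 7 and 5 members. Of all genes tested, 0.384, 0.775 and 2.79% were called at these days, and the median of all genes was -0.12 at day 4 and 0 at day 8. Differences in the size of the classes were seen without a test. At day 0 the tRNA share of the mitochondrial TPM was 28.0 and 30.3% in wild type and 35.9 and 38.3% in S13 and S23, a mean difference of 7.89 points. MT-ATP8 was lower in S13 and S23 (81230 and 69567 TPM) than in wild type (96578 and 94202 TPM), a log2 change of -0.34 (SE 0.16, limma adjusted p = 0.934). The rRNA share was higher in S13 and S23 at day 8, at 7.30 and 6.74% against 5.67 and 5.61%, a mean difference of 1.39 points. With 2 libraries against 2, an exact two-sided permutation test cannot give a p below 0.333.

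Of the protein-coding members whose 2 groups did not overlap, most were lower in the libraries labelled SOX21-/- at day 0, higher at day 4 and lower at day 8, while MT-RNR2 was higher at all 3 days. At day 0 the libraries labelled SOX21-/- were both higher for 2 of 13 protein-coding genes, both rRNAs and 6 of 22 tRNAs, and both lower for 6 protein-coding genes and 2 tRNAs. Over all genes tested at day 0, 15.7% were higher without overlap and 14.0% lower. At day 4, 6 protein-coding genes (MT-ND1, MT-ND2, MT-CO1, MT-CO2, MT-CO3 and MT-ND4) were higher and 3 (MT-ATP8, MT-ND5 and MT-ND6) lower, both rRNAs were higher, and 2 tRNAs were higher and 1 lower, beside 11.1% higher and 33.8% lower over all genes. At day 8, 9 protein-coding genes were lower and 0 higher, MT-RNR2 was higher, and 2 tRNAs were lower, beside 21.4% higher and 21.7% lower. MT-CO1 at day 4 had the smallest adjusted p of these comparisons, with 12287 and 12910 TPM in wild type and 16038 and 14887 TPM in S13 and S23, a log2 change of 0.29 (SE 0.058, limma adjusted p = 0.0677). It was called with a filter at 5 TPM (adjusted p = 0.0491) and with median-of-ratios scaling (0.0485), and not under the other 18 of 20 alternatives, whose adjusted p reached 0.874 with only the libraries of the days compared. At the same day the summed neuron markers and LHX2 were lower in S13 and S23, while INA and SOX1 were higher. The part of these markers in the MT-CO1 value was not tested. At day 8, MT-ND1 had 3728 and 4209 TPM in WT1 and WT2 against 3018 and 3395 TPM in S13 and S23, a log2 change of -0.31 (SE 0.074, limma adjusted p = 0.0740). MT-CYB at day 8 was at 1918 and 2122 TPM against 1454 and 1562 TPM, a log2 change of -0.42 (SE 0.12, limma adjusted p = 0.107).

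**Figure D5:**
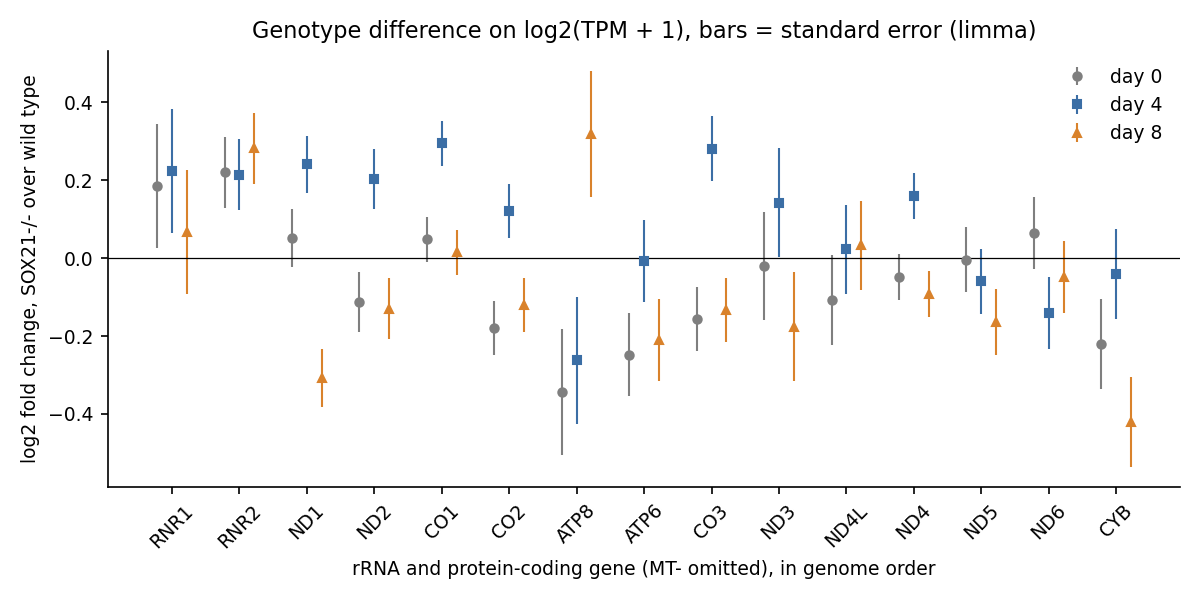
Points give the log2 fold change of the libraries labelled SOX21-/- over wild type on log2(TPM + 1) for 2 rRNA and 13 protein-coding genes at day 0 (grey circles), day 4 (blue squares) and day 8 (orange triangles), and bars are the standard error from limma. MT-ND1, MT-ND2, MT-CO2, MT-CO3 and MT-ND4 lie above 0 at day 4 and below 0 at day 8, MT-RNR2 lies above 0 at all 3 days, and no gene was called.

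The test of the difference itself, whether a day step differed between genotypes, called 0 of 37 members from day 0 to day 4 and 0 of 37 from day 4 to day 8 with limma, while 0.408 and 1.11% of all genes were called. Unadjusted p-values were below 0.05 for 5 and 8 members. The step of MT-ND1 from day 4 to day 8 came closest, with a difference of -0.55 between genotypes (SE 0.11, limma adjusted p = 0.0554), and was called with a filter at 5 TPM (adjusted p = 0.0448), with a range of 0.0448 to 0.252 over 20 alternatives. For MT-CO3 the difference was 0.44 from day 0 to day 4 (limma adjusted p = 0.201) and -0.41 from day 4 to day 8 (limma adjusted p = 0.133).

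The nuclear genes that make, cut, modify and use mitochondrial RNA were read from the same fit. With limma, 0 of 243 tested genes in 11 lists, the subunits of the 5 complexes included, were called between genotypes at any day or in the differences between day steps. Unadjusted p-values were below 0.05 for 10, 46 and 25 of them at days 0, 4 and 8, and for 28 and 49 in the differences between steps. For counts of unadjusted p-values, here and elsewhere, the share over all genes is not given, and none is read as a result. The list counts from day 0 to day 4 stand beside 54.3% of all genes higher and 11.4% lower in wild type. In that step, 13 of 16 genes of mitochondrial DNA copying and transcription were higher and 0 lower (median 1.39, beside 0.91 over all genes), among them TEFM, the elongation factor of mitochondrial transcription (2.08), and MTERF4 (2.15). Of 20 genes of RNA processing and decay, 15 were higher and 2 lower (median 0.91), HSD17B10, a part of mitochondrial RNase P, rising by 1.78 and PNPT1, the mitochondrial polynucleotide phosphorylase, falling by 1.25 on the log2 scale. Of 22 genes of tRNA and rRNA modification 17 were higher and 1 lower (median 1.09), and of 22 mitochondrial aminoacyl-tRNA synthetases 16 were higher and 3 lower (median 1.02). AARS2, which charges the tRNA of MT-TA with alanine, rose by 2.32. Mitochondrial ribosomal proteins numbered 57 higher and 10 lower of 78 (median 0.95), and biogenesis regulators 5 higher and 0 lower of 8 (median 1.08), with GABPA rising by 2.09 and NRF1 by 1.98. These directions depend on the scale: with median-of-ratios scaling the medians of all 11 lists were below 0 in wild type, and of the mitochondrial ribosomal proteins 4 were higher and 45 lower. The median of DNA copying and transcription was then -0.002, with 6 higher and 4 lower. With TPM scaled to nuclear protein-coding genes, 114 of 244 list entries were higher and 53 lower in wild type. There the medians of complexes II, III, IV and V were below 0 and the others above.

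Nuclear subunits of the complexes that the mitochondrial mRNAs contribute to were called in both directions. For wild type between days 0 and 4, complex I had 27 higher and 6 lower of 37 (median 0.89), with NDUFB2 rising by 2.24 and NDUFB5 falling by 2.02 on the log2 scale. Complex III had 6 higher and 1 lower of 9 (median 0.52), complex IV 5 higher and 4 lower of 11 (median 0.14) and complex V 7 higher and 5 lower of 16 (median 0.16). COX6A1 of complex IV rose by 2.33 and NDUFA4, also of complex IV, fell by 1.04 on the log2 scale. Complex II, which has no mitochondrially encoded subunit, had 3 higher and 1 lower of 5 identifiers (median 0.39). With median-of-ratios scaling complex I had 1 higher and 19 lower, and complex V 1 and 13. With TPM scaled to nuclear protein-coding genes complex I had 15 higher and 7 lower, and complex V 4 and 8. The summed TPM of the 12 mitochondrial mRNAs was 5.07 to 6.005 times that of the nuclear subunits of all 5 complexes at day 0, 4.17 to 4.59 times at day 4 and 4.04 to 4.95 times at day 8, so the ranges of day 0 and the later days did not overlap. From day 4 to day 8, mitochondrial ribosomal proteins had 1 higher and 5 lower of 78 in wild type, against 3 and 31 for the SOX21-/- label (median -0.32, beside 0.20 over all genes), with MRPL17 falling by 1.37 on the log2 scale there. Of all genes, 7.62% were higher and 4.99% lower in this step in wild type, against 19.0% and 7.15% for the SOX21-/- label. With median-of-ratios scaling 0 were higher and 8 lower of the 78 in wild type and 0 and 50 for the SOX21-/- label, and of all called genes 1177 of 2686 and 2390 of 5312 were higher, against 1848 of 3058 and 4603 of 6336 on the TPM scale. The difference in this step between genotypes was called by limma for 0 of the 78, of which 17 had an unadjusted p below 0.05.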

How the data were processed

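The authors deposited TPM per gene for 12 poly(A) RNA libraries. Per the submitters' processing notes, bases were called with CASAVA 1.7 and levels estimated with Salmon 0.8.2 on hg38; the annotation release and use of strand are not given in the sources used here. TPM divides by length, so values of genes shorter than a read depend strongly on the estimated length.

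Members and lists were chosen with earlier results of these data known. The 24248 genes at 1 TPM or more in at least 2 libraries were fitted on log2(TPM + 1) with limma 3.58.1 (R 4.3.3): a mean for each of 6 groups, 6 residual and 2.29 prior degrees of freedom, a variance trend, two-sided tests and Benjamini-Hochberg adjustment at 0.05 within each comparison. The model was tested on simulated data. Class shares were described without a test. Of each list, up to the 3 largest called changes each way, at a mean of 5 TPM or more, could be named. Gene positions, lengths and sequences came from GENCODE v29 (GRCh38). The closing section gives the alternatives: a pseudocount of 0.1, other filters, 2 scalings, other moderation, only the days compared, the line label as a block, and each library left out. Columns of other series numbered 0.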

Additional observations from a re-analysis of the deposited data

How the results depend on the processing

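Of 26 called changes of a protein-coding or rRNA gene in a comparison, 10 kept their direction and call under every alternative, 13 were lost under at least 1 and 10 reversed under at least 1. The tRNA calls are left out of this count, since most of them are of genes that passed the filter only with day 0 libraries. All reversals were in the step from day 0 to day 4 and came from the 2 scalings. With median-of-ratios scaling the log2 changes in wild type were -0.37 for MT-CO1, -1.24 for MT-CO2, -1.18 for MT-CO3, -0.75 for MT-ND5 and -1.18 for MT-ND6, and in the libraries labelled SOX21-/- -0.72 for MT-CO2, -0.53 for MT-CO3, -0.87 for MT-ND1, -1.01 for MT-ND2 and -0.59 for MT-ND5. With TPM scaled to nuclear protein-coding genes they were -0.44 (MT-CO2), -0.38 (MT-CO3) and -0.38 (MT-ND6) in wild type and -0.13 (MT-CO2), -0.27 (MT-ND1) and -0.41 (MT-ND2) in the libraries labelled SOX21-/-.

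Between genotypes, 1 member was called instead of 0 at day 4 with a filter at 5 TPM or median-of-ratios scaling, and 1 in the difference of the step from day 4 to day 8 with a filter at 5 TPM. Over all genes, 172 of 15762, 129 of 24248 and 225 of 15762 were called in these fits, in that order. From day 4 to day 8, the calls in wild type went from 2 to 0 with median-of-ratios scaling, moderation without the trend, no filter or only the libraries of the days compared, and in the libraries labelled SOX21-/- from 5 to 9 with the first and to 3 with each of the others. The cause was not tested. Over all genes in wild type, 3058 of 24248 were called in the main fit, 2686 with median-of-ratios scaling and 2741 without the trend. With no filter 2589 of 41105 were called. In the libraries labelled SOX21-/- these counts were 6336, 5312, 5979 and 5758. For only the libraries of the days compared, the counts over all genes are not given. The changes in members called under that setting thus stand without a background and are not read as a result.

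With 1 library left out, the lone library of a group is assumed to vary like the others, and counts of calls between genotypes are not given. Members called between genotypes only in such fits were the tRNA genes MT-TW, MT-TF, MT-TM, MT-TS2, MT-TT and MT-TS1. All but MT-TS1 passed the filter only with day 0 libraries, and none of these calls is read as a result. At day 0, MT-TW was at 0 TPM in WT2 and MT-TM at 23.5 TPM in S23. Counts of members called in the day steps with 1 library left out are not given. From day 0 to day 4 they include tRNA genes that passed the filter only with day 0 libraries. MT-ND6 in wild type lost its call from day 0 to day 4 without any wild-type library of any day, or without S13 or S23 at day 4. MT-ND2 in the libraries labelled SOX21-/- lost its call in that step without any wild-type library, S23 at day 0, or S13 or S23 at day 4. MT-CO1 in wild type lost its call from day 4 to day 8 without any wild-type library, MT-RNR2 without any of days 4 or 8, and MT-CO3 in the libraries labelled SOX21-/- without any library of days 4 or 8.

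With TPM multiplied by gene length, the mean shares of the mitochondrial sum were 87.3% protein-coding, 6.03% rRNA and 6.71% tRNA at day 0, then 92.2, 7.79 and 0.0606% on day 4 and 89.6, 10.4 and 0.0650% on day 8. Weighted in this way, the protein-coding share ran from 85.0 to 89.5% at day 0 and from 88.1 to 90.7% at day 8. These ranges overlapped. On that scale the difference between genotypes (SOX21-/- label minus wild type) was 1.79 points for tRNA and 1.32 for rRNA at day 0, and 2.26 for rRNA and -2.26 for protein-coding genes at day 8. Without MT-ATP8, an alternative chosen after seeing the data, the shares at day 0 were 45.4, 2.22 and 52.4%, and the mitochondrial genes held 14.5% of all TPM at day 0. For each 100 TPM of nuclear protein-coding genes the mitochondrial genes had 41.0 TPM at day 0, 8.84 at day 4 and 9.22 at day 8.

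Libraries with the same line label did not deviate together: correlations of their deviations between days ran from -0.00603 to 0.0712. With the line label as a replicate block, the calls from day 4 to day 8 were 2 in wild type and 5 in the libraries labelled SOX21-/-, the same numbers as in the main fit. The share over all genes in this setting is not given, and these counts are not read as a result. Counts from day 0 to day 4 are left out, since they include tRNA genes that passed the filter only with day 0 libraries. In both differences of day steps 0 members were called, and with the label as a random effect 0 between genotypes at each day.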
